A study of Mus musculus with 14 samples.

Results

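The genes described here encode enzymes and complexes that modify histones or move nucleosomes: 44 chromatin modifier and remodeller genes, among them the Polycomb subunits, histone acetyltransferases and deacetylases, lysine methyltransferases and demethylases, and the SWI/SNF and NuRD remodellers. Their members among the accessibility windows were the windows of a bulk ATAC-seq count table whose centre had one of these genes as its nearest protein-coding start site within 100 kb. That gave 856 of 240778 windows, 225 within 1 kb of a start site (start-site windows) and 631 farther away (distal windows), and every one of the 44 genes had at least 1 window. ATAC-seq uses a transposase that cuts open chromatin, so the count in a window reports how accessible that stretch of DNA was, not how much of the gene was transcribed. Each window spans 201 bp in coordinates of mouse build GRCm38 (mm10).

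The cells were Treg cells, taken from the spleen and lymph nodes, and the mice carried Foxp3AID, an allele in which Foxp3 is fused to an auxin-inducible degron and which also carries a ZsGreen reporter and Cre. R26TIR1(F74G) mice express, after Cre has removed a stop cassette, the receptor TIR1(F74G) that lets the ligand 5-ph-IAA trigger degradation of the Foxp3 fusion protein, so the receptor is made in cells that express or have expressed Foxp3. R26WT mice carry the same Foxp3AID allele without the receptor, and both genotypes were given 5-ph-IAA, for 3 days (4 R26TIR1(F74G) and 4 R26WT mice) or 7 days (3 and 3). The study's text describes resting and activated sorts on day 7 in heterozygous Foxp3AID/WT mice, but the labels give no activation state, so the values cannot be split by it, and no untreated group enters the comparisons.

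Polycomb repressive complex 2 (PRC2) methylates lysine 27 of histone H3, and Polycomb repressive complex 1 (PRC1) reads that mark through its Cbx subunits and ubiquitinates histone H2A. Acetyltransferases and deacetylases set the acetylation of histones and of other proteins. In Treg cells several of these enzymes are known partners or regulators of Foxp3: Kat5 and Ep300 can acetylate Foxp3, Hdac7 and Hdac9 have been found with it, and Ezh2 is needed for activated Treg cells to keep their identity.

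Library totals ranged from 5653289 to 20184487 counts in windows, with a median of 15560985, and the 2 least deep libraries were day 3 R26TIR1(F74G) replicate 1 and day 7 R26WT replicate 3. The member windows held 0.426% to 0.472% of a library. Start-site windows of all genes together held 47.4% to 51.3% of the counts in R26TIR1(F74G) mice and 49.8% to 51.9% in R26WT mice on day 3, and 50.1% to 51.4% against 47.3% to 51.0% on day 7. Among genes that mark T and Treg cells, Cd3e, Cd4, Il2ra, Ctla4 and Ikzf2 had start-site windows, while Foxp3 had distal windows only in the table used here. Of the B cell genes, Ebf1 had a start-site window (7.88 CPM), whereas Ms4a1, Cd79a and Pax5 had none, nor did the NK cell genes Ncr1 and Klrb1c. Cd8b1, a CD8 T cell gene, was at 25.1 CPM and Cd8a at 1.33 CPM, beside 11.96 CPM for Cd4. The CD8 genes summed to 26.2 to 30.9 CPM in R26TIR1(F74G) mice and 19.6 to 27.5 CPM in R26WT mice on day 7, and to 21.1 to 31.7 CPM against 22.7 to 26.98 CPM on day 3. Of 5 myeloid genes, Cd14 (11.08 CPM), Spi1 (8.41 CPM) and Itgam (1.12 CPM) had start-site windows, summing to 18.2 to 24.2 CPM in all libraries, and Lyz2 and Csf1r had none. The part of other cells in the values that follow was not tested. The start-site windows of 4 of 5 resting-cell genes summed to between 204 and 282 CPM per library, and those of 5 of 8 activated-cell genes to between 205 and 261 CPM.

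Accessibility at start sites was the first property compared across the members. Accessibility is given here in CPM, counts scaled to the library total with TMM factors, and all windows have the same width, so single windows can be compared between genes. Sums over the start-site windows of a gene also grow with the number of windows, and overlapping windows count the same fragments more than once. Of the 44 genes, 43 had start-site windows, a median of 5 each against 4 for the 12019 protein-coding genes with such windows. The median summed start-site accessibility of the 43 was 47.7 CPM against 33.0 CPM for all those genes, 31 lay above the median of all, and 12 lay above the 90th percentile.

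Kat6b, a MYST-family acetyltransferase, had the highest sum of the 43, 204 CPM ± 16.9 (SD over 14 mice, 6 windows), at rank 56 of the 12019 genes. It was followed by Kdm6a, an X-linked H3K27 demethylase (152 ± 12.001 CPM, 5 windows), Eed, the PRC2 subunit that binds the methylated mark (133 ± 10.9 CPM, 4 windows), the class IIa deacetylase gene Hdac4 (131 ± 12.7 CPM, 4 windows) and the NuRD subunit gene Mbd3 (128 ± 15.5 CPM, 6 windows). The order of Eed, Hdac4 and Mbd3 is not firm, since their means differed by less than 1 SD. Kat6b stood above the other 42: its lowest mouse, at 169 CPM, was above the highest mouse of Kdm6a, at 166 CPM. At the other end were Ezh1 (16.7 ± 2.71 CPM, 3 windows), Kat2a (17.7 ± 2.17 CPM, 7 windows), Cbx6 (20.9 ± 2.65 CPM, 5 windows), Kmt2d (21.0 ± 2.37 CPM, 4 windows) and Kat8 (21.6 ± 2.28 CPM, 3 windows), whose neighbours in the order again differed by less than 1 SD. By the most accessible single window, 4 of the highest 5 genes were shared with the order by sums (Hdac4, Kat6b, Kdm6a and Mbd3), but only Kat2a of the lowest 5, where Kdm6b (4.26 CPM), Ehmt2 (7.84 CPM), Hdac7 (8.81 CPM) and Setdb1 (10.2 CPM) took the other places.

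**Figure D1:**
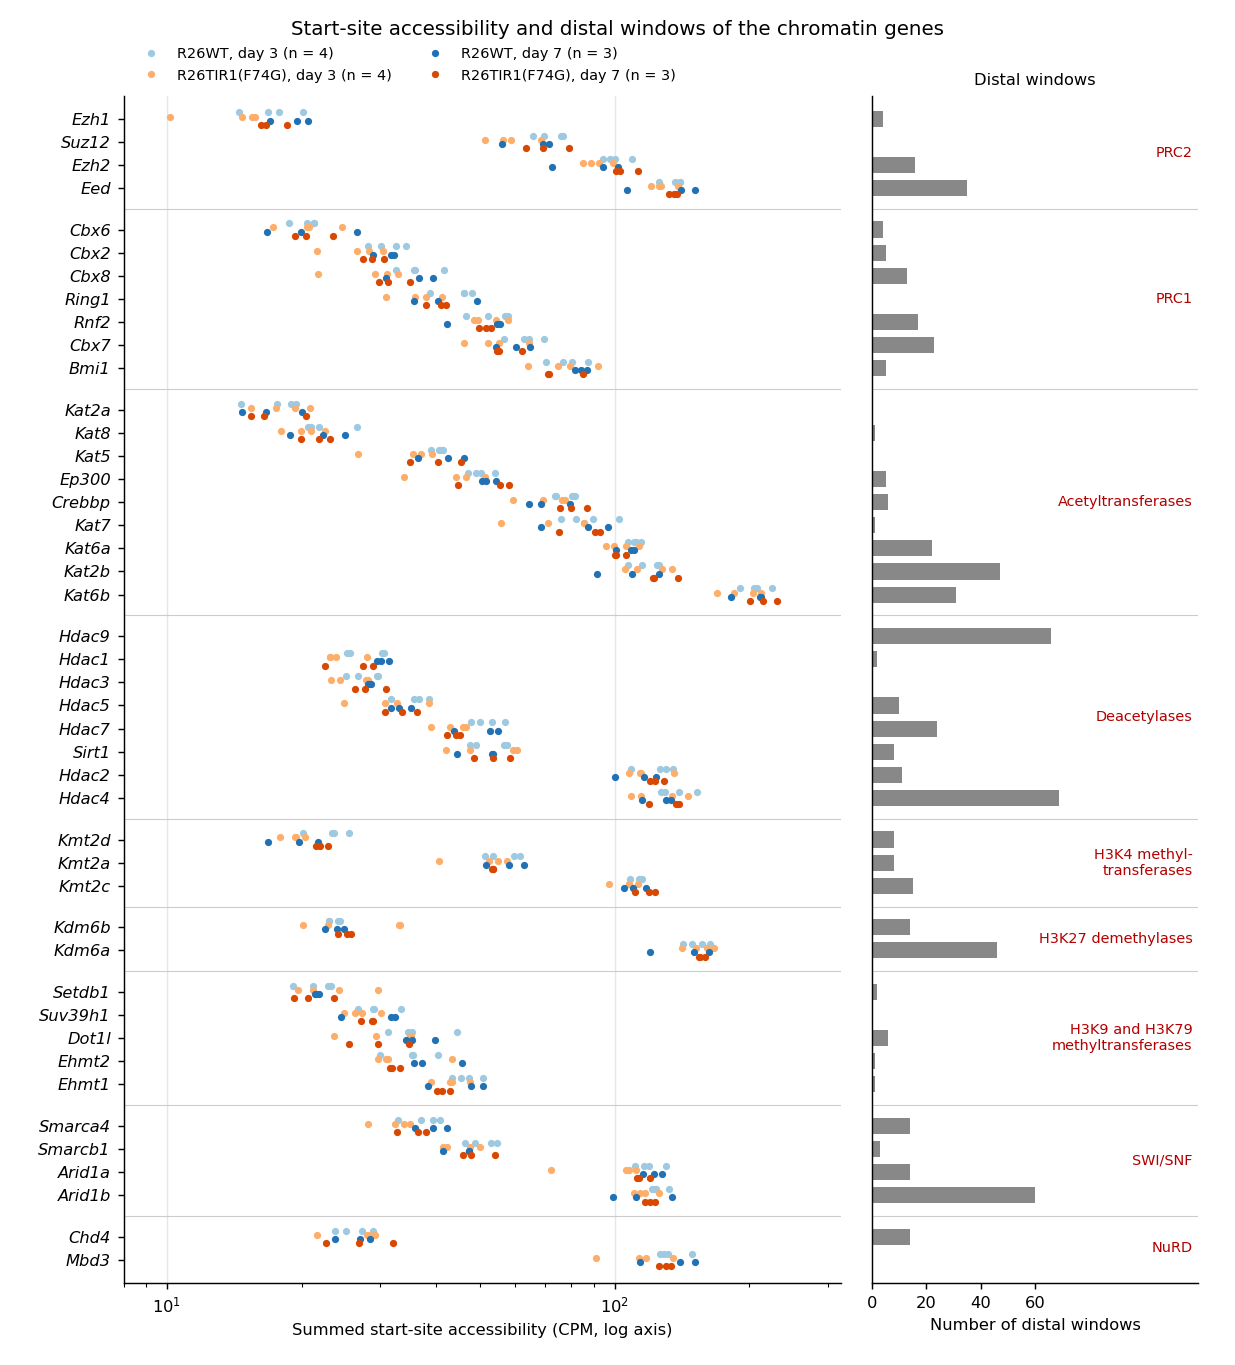
Left, summed start-site accessibility of each member in CPM on a log axis, 1 point per mouse (14 mice), coloured by genotype and day and grouped by function, and right, bars for the number of distal windows. Kat6b lies highest, near 204 CPM, and Ezh1 lowest, near 16.7 CPM, whereas Hdac9 has no start-site window and 66 distal ones.

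Paralogues with the same biochemical role differed to varying degrees. Ezh2, the main PRC2 methyltransferase of dividing cells, had 96.6 ± 10.1 CPM over 5 start-site windows and 39.7 CPM in its most accessible one, against 16.7 CPM in the sum and 12.8 CPM in the most accessible window of Ezh1, its paralogue of resting cells. The Ezh2 sum in the 14 mice ran from 72.4 to 113 CPM and the Ezh1 sum from 10.1 to 20.7 CPM, so the ranges did not overlap. Suz12, the PRC2 scaffold subunit, lay between them at 66.5 ± 8.42 CPM. Among the Cbx genes of PRC1, Cbx7 had the highest sum (58.7 ± 6.29 CPM, 6 windows), then Cbx8 (33.1 ± 4.87 CPM, 1 window), Cbx2 (29.4 ± 3.09 CPM, 5 windows) and Cbx6. By the most accessible single window Cbx8 (33.1 CPM) was above Cbx7 (20.9 CPM), Cbx2 (14.1 CPM) and Cbx6 (12.1 CPM). Of the E3 ligases of PRC1, Rnf2 (52.2 ± 4.52 CPM) was above Ring1 (40.8 ± 5.20 CPM). Kdm6a was at 152 CPM and its paralogue Kdm6b, an inducible H3K27 demethylase, at 25.02 ± 3.67 CPM. Kdm6b had no curated start site and was placed by the gene end, so the size of this contrast depends on that placing.

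The promoters of these genes give the letters around their start sites, which need not be those of the windows. The most accessible start-site windows of Cbx7 (202 bp into the gene) and Kat6b (891 bp), for example, lie outside the promoters used here. RefSeq promoters of GRCm38.p6, running from 250 bases before to 50 after a curated start, were found for 39 members (51 promoters). They held a median of 29 CpG dinucleotides and 66.3% G+C, against 20 CpG and 60.7% for 12600 promoters of protein-coding genes with a start-site window and 7 CpG and 52.7% for all 32851 promoters of the table. Across 38 members, the CpG number and the log2 start-site sum had a Pearson r of 0.256 and a Spearman rho of 0.261, a description over genes that share libraries and base composition. Hdac9 was the only member with no start-site window, and the promoter of it printed here, 1 of 2 curated ones, held 0 CpG at 44% G+C. Of the 51 member promoters, 4 held at most 5 CpG. The 5 promoters were chosen as those of the gene with the window past the threshold (Cbx7), the most accessible single window (Hdac4), no start-site window (Hdac9) and the PRC2 paralogues that differ most (Ezh2 and Ezh1). Capitals mark matches on either strand to CCGGAA (the core of ETS sites), GGGCGG (a box of SP and KLF factors), CCAAT (a box bound by NF-Y), TATAAA (the TATA box) or GCATGCGC (part of NRF1 sites), and the last base of the first 250 lies just before the start site. The coordinates are chr15:79932597-79932896 for Cbx7, chr1:92180292-92180591 for Hdac4, chr12:34917046-34917345 for Hdac9, chr6:47594981-47595280 for Ezh2 and chr11:101226414-101226713 for Ezh1, all on the minus strand.
Cbx7: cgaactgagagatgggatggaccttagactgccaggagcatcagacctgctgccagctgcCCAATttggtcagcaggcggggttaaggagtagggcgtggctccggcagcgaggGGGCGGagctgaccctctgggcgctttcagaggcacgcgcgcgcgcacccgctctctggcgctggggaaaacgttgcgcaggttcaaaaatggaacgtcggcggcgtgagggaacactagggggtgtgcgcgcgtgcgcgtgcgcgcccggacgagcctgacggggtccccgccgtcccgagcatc
Hdac4: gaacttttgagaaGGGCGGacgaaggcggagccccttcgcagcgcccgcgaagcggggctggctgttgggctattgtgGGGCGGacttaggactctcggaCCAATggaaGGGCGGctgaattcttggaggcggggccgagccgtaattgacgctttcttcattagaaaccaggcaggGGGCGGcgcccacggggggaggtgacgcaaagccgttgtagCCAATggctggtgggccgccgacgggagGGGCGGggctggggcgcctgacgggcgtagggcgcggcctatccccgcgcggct
Hdac9: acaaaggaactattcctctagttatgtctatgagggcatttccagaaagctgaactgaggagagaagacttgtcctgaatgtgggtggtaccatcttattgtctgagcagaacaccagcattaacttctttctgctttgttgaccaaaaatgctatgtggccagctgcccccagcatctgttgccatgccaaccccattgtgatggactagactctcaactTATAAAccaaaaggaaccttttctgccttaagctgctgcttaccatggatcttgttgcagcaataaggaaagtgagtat
Ezh2: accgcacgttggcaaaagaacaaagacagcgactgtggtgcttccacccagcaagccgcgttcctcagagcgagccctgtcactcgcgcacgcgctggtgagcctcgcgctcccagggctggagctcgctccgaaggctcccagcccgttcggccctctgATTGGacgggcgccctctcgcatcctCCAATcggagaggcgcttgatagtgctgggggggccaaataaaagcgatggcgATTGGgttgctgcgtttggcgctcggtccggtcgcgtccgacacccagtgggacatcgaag
Ezh1: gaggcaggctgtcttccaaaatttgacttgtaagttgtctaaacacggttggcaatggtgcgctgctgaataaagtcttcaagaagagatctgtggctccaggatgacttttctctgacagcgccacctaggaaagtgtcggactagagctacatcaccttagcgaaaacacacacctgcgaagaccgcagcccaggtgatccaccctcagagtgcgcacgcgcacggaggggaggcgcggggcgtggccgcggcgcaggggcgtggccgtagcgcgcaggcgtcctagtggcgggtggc
The Hdac4 promoter carried 5 matches to GGGCGG and 2 to CCAAT, the Ezh2 promoter 3 to CCAAT, the Cbx7 promoter 1 to each, the Hdac9 promoter 1 to TATAAA and the Ezh1 promoter none of the 5 motifs. Over the 51 member promoters, GGGCGG was found in 74.5%, against 35.7% of all 32851 promoters and 62.6% of those of genes with a start-site window. CCAAT was found in 33.3% (37.4% of all, 37.4% at genes with a start-site window), CCGGAA in 19.6% (14.9% and 26.6%), TATAAA in 3.92% (13.6% and 6.98%) and GCATGCGC in 3.92% (2.71% and 5.07%). A match describes the letters and is no measured binding site.

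Distal windows were spread unevenly. The 44 genes had a median of 8 distal windows against 5 for all genes with windows, and 467 of the 631 (74%) lay inside the gene they were assigned to. Hdac4 had 69, Hdac9 66, Arid1b 60, Kat2b 47 and Kdm6a 46, whereas Hdac3, Kat2a, Kat5, Mbd3, Ring1, Suv39h1 and Suz12 had none. Arid1b, which encodes a DNA-binding subunit of SWI/SNF, had the most accessible distal window of the members (30.6 CPM, 12166 bp into the gene from a start site, chr17:5007140-5007341). Kat6b had one of 30.1 CPM at 1371 bp, and Hdac7 one of 29.9 CPM at 6248 bp (chr15:97825147-97825348), more than any start-site window of Hdac7, the highest of which was at 8.81 CPM. Kdm6b had the same order, with 22.4 CPM at 10803 bp and 4.26 CPM at most at its start site, and 81.1% of its summed accessibility was distal. Its start was placed by the gene end, so these values depend on that placing. For most members with a curated start the gene end gave the same highest window. For Cbx7, Hdac4, Kmt2d and Kdm6a it held 0 CPM within 1 kb, against 20.9, 80.1, 10.8 and 68.9 CPM at the curated start. The most accessible distal windows of the other groups were those of Cbx7 (20.8 CPM at 4865 bp), Kmt2d (13.7 CPM, 1003 bp upstream), Eed (13.4 CPM, 42275 bp upstream and outside the gene), Chd4 (7.29 CPM at 3300 bp) and Dot1l (5.76 CPM at 2709 bp). Hdac9, an enzyme of the same class as Hdac4, had 66 distal windows of at most 4.41 CPM, and its nearest window was 4713 bp from a start site.

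Between mice, the summed start-site levels varied most, as SD of the log2 CPM over 14 mice, for Ezh1 (0.26), Dot1l (0.24) and Kat7 (0.23), and least for Kat6a (0.08) and Kmt2c (0.09). This SD runs over both genotypes and both days, so it also holds any difference between them.

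The comparison between genotypes asked whether accessibility at these genes differed when Foxp3 could be degraded. The raw counts of each window went into the quasi-likelihood test of edgeR, and p-values were adjusted by Benjamini-Hochberg over all windows tested. With both days in 1 fit that had a term for day, 1 of the 856 member windows passed an adjusted p of 0.05, a share of 0.117% beside 0.0112% of all 240778 windows (27 windows). It is a distal window of Cbx7, a chromodomain subunit of PRC1, and it was less accessible in R26TIR1(F74G) mice. In these bulk libraries, fewer cells with an open window and less opening per cell cannot be told apart. On day 7 alone, 0 of the 852 member windows that passed the filter on low counts were past the threshold (0.00463% of all 237811 windows) and on day 3 alone 0 of 841 were (0% of all 235515 windows). At an unadjusted p of 0.05 these comparisons held 71 (8.29%), 54 (6.34%) and 58 (6.90%) member windows, beside 6.73%, 5.95% and 7.54% of all windows in the same order. DESeq2, run as an alternative, called 0 member windows in each of the 3 comparisons, with 62, 27 and 37 at an unadjusted p of 0.05. It gave an adjusted p to 154 of the 856 member windows over both days, and not to the Cbx7 window, whose unadjusted p was 4.67e-07 there.

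The Cbx7 window is chr15:79956550-79956751, 24004 bp upstream of the only curated Cbx7 start (RefSeq) and within the RefSeq extent of the gene, which includes predicted transcripts. On day 3 its accessibility was 7.45, 8.53, 7.17 and 6.49 CPM in the 4 R26WT mice and 5.40, 5.53, 4.99 and 4.58 CPM in the 4 R26TIR1(F74G) mice. On day 7 it was 5.94, 6.92 and 8.997 CPM in R26WT mice and 4.12, 4.53 and 4.05 CPM in R26TIR1(F74G) mice. Every R26TIR1(F74G) value, the highest being 5.53 CPM, lay below every R26WT value, the lowest being 5.94 CPM. Over both days the log2 fold change was -0.62 (SE 0.12, adjusted p = 0.0429, edgeR quasi-likelihood test). The means were 4.74 ± 0.584 CPM in 7 R26TIR1(F74G) mice and 7.36 ± 1.08 CPM in 7 R26WT mice, a ratio of 0.645. Within a day it was -0.74 (SE 0.18, adjusted p = 0.329) on day 7 and -0.53 (SE 0.16, adjusted p = 0.468) on day 3, and the difference between the days was -0.21 (SE 0.24, adjusted p = 0.929). Raw counts behind the values ranged from 30 to 129 reads per library. Each library is a separate mouse by its name, so the p-values measure the spread between mice.

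The adjusted p of the Cbx7 window sat close to the threshold. With any 1 of 10 of the 14 mice left out it was above 0.05, up to 0.167 without day 7 R26TIR1(F74G) replicate 3. It stayed below 0.05, down to 0.0255, without day 3 R26TIR1(F74G) replicate 1 or 2, day 3 R26WT replicate 3 or day 7 R26WT replicate 1. The log2 fold change stayed between -0.66 and -0.56 in all 14 cases. Mouse names carry 2 prefixes in the library names: among the 10 mice with the prefix AC the means were 4.89 ± 0.680 CPM (4 R26TIR1(F74G) mice) and 7.50 ± 1.11 CPM (6 R26WT mice), and with the prefix as a term the log2 fold change was -0.57 (SE 0.13, adjusted p = 0.191).

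**Figure D2:**
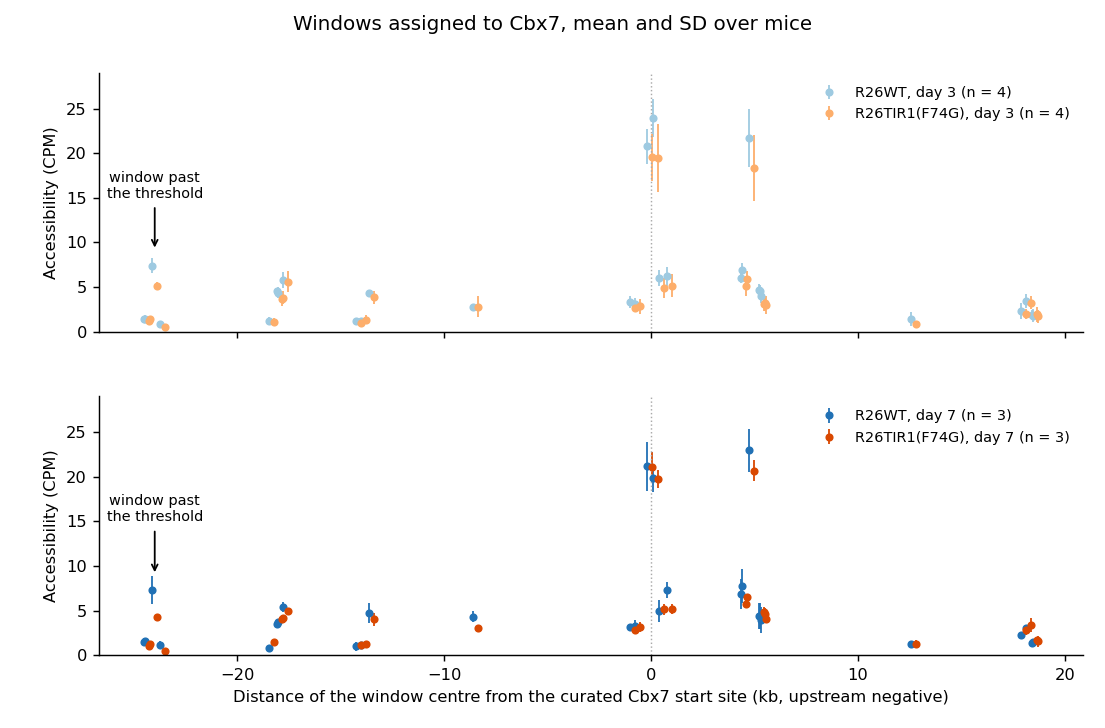
Accessibility in CPM (mean and SD over mice) of the windows assigned to Cbx7 against the distance of the window centre from the curated start in kb, with day 3 above, day 7 below and the genotypes drawn side by side. The window 24004 bp upstream averages 7.41 and 7.29 CPM in R26WT mice and 5.12 and 4.23 CPM in R26TIR1(F74G) mice on days 3 and 7, whereas at the most accessible start-site window, 202 bp into the gene, the genotypes overlap on both days.

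Most other windows of Cbx7 had values on the same side of 0, none of them past the threshold. Of its 23 distal windows, the called one included, 17 had a log2 fold change below 0 over both days, as did all 6 start-site windows. The nearest neighbours of the called window had log2 fold changes of -0.93 (SE 0.33) at 23628 bp upstream, -0.20 (SE 0.22) at 24332 bp and -0.37 (SE 0.24) at 24391 bp, with adjusted p of 0.569, 0.921 and 0.831 and means of 0.748, 1.42 and 1.27 CPM. At the start site itself the most accessible window (20.9 CPM at 202 bp) had -0.19 (SE 0.09, adjusted p = 0.743). The window at 882 bp had -0.41 (SE 0.13, adjusted p = 0.446), with 8.27, 6.51 and 7.20 CPM in R26WT mice on day 7 against 5.61, 4.53 and 5.31 CPM in R26TIR1(F74G) mice, which did not overlap, while on day 3 the groups overlapped. The 3 genes that are no members and whose summed start-site log2 CPM followed that of Cbx7 most closely over the 14 libraries, of 11976 searched, were Atf1 (Pearson r 0.921), Taok2 (0.912) and Ssh2 (0.904), values that also carry what libraries share in depth and start-site share.

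**Figure D3:**
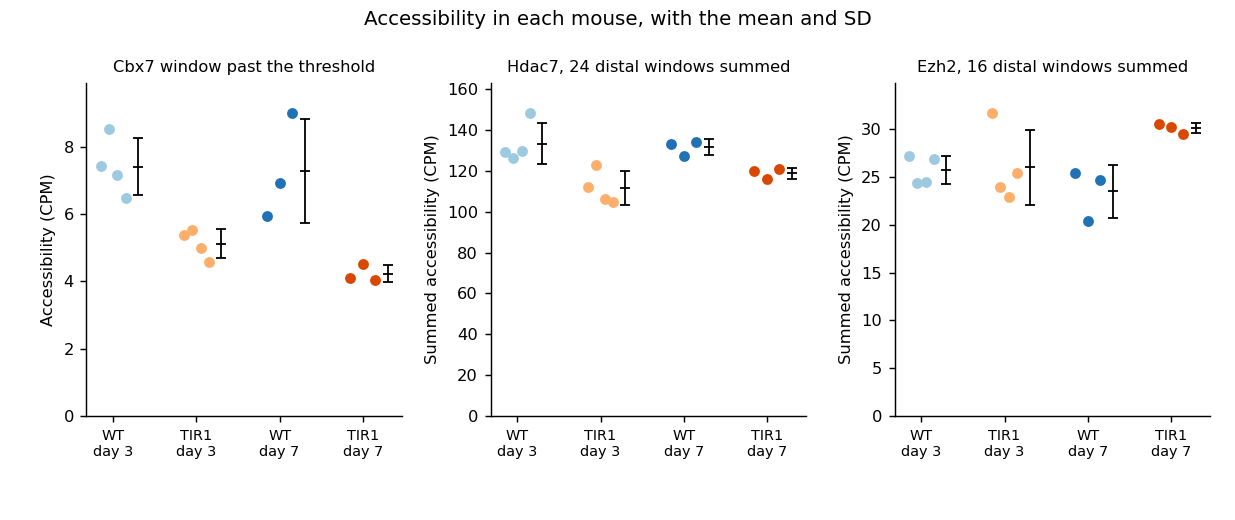
Accessibility in CPM in each mouse (points) with the mean and SD (black) by genotype and day, for the Cbx7 window, the 24 distal windows of Hdac7 summed and the 16 distal windows of Ezh2 summed. In the first 2 panels every R26TIR1(F74G) mouse lies below every R26WT mouse, and in the third the groups separate on day 7 only.

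Groups of mice did not overlap for 3 member windows over both days (0.350%, beside 0.116% of all windows), all lower in R26TIR1(F74G) mice: the Cbx7 window and 2 overlapping Hdac7 windows, named after their values were seen. Hdac7 encodes a class IIa deacetylase that is abundant in T cells. The Hdac7 windows lie 712 and 755 bp into the gene from its upstream start, with log2 fold changes of -0.59 (SE 0.20, adjusted p = 0.542) and -0.66 (SE 0.20, adjusted p = 0.435) and means of 1.61 and 1.79 CPM. On day 7 groups did not overlap for 105 member windows (12.3%, 53 higher and 52 lower), beside 11.8% of all windows, and on day 3 for 31 (3.62%, 6 higher and 25 lower), beside 4.09%.

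The largest non-overlapping values of day 7 are given for member windows with a mean count of 50 or more, all short of the threshold. On the lower side they were the Cbx7 window, a distal window of the acetyltransferase gene Kat7 and the Cbx7 window at 882 bp. The Kat7 window, 11932 bp from its start, had 3.88, 4.36 and 4.80 CPM in R26WT mice and 2.94, 2.98 and 2.43 CPM in R26TIR1(F74G) mice (log2 fold change -0.62, SE 0.21, adjusted p = 0.691). On the higher side were Hdac4 at 1298 bp (0.53, SE 0.21, adjusted p = 0.787), Kat2b at 47394 bp (0.47, SE 0.20, adjusted p = 0.816) and Kmt2d at 324 bp upstream (0.47, SE 0.21, adjusted p = 0.824). On day 3 the values of these 4 windows were -0.08, -0.18, 0.03 and -0.21 in the order named, none past the threshold.

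On day 3, the 6 higher non-overlapping member windows all had mean counts under 50. Among those with a mean count of 50 or more, all non-overlapping values were on the lower side. None of the 3 largest passed the threshold. Besides the Cbx7 window they were a distal window of Hdac7, 6661 bp upstream of a start (-0.47, SE 0.16, adjusted p = 0.522), and the most accessible start-site window of Arid1a, the DNA-binding subunit of the BAF form of SWI/SNF (-0.45, SE 0.12, adjusted p = 0.415). The Arid1a window, 407 bp upstream, had 31.6, 33.2, 31.6 and 41.8 CPM in R26WT mice and 26.8, 25.002, 20.9 and 29.2 CPM in R26TIR1(F74G) mice. On day 7 it had -0.15 (SE 0.12) and the Hdac7 window 0.12 (SE 0.16).

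The member windows were also set beside all windows of their class. Start-site windows of members had a median log2 fold change of 0.01 (day 7), -0.09 (day 3) and -0.04 (both days), beside 0.03, -0.06 and -0.01 for all start-site windows. Distal windows had medians of -0.02, -0.03 and -0.02 in that order, beside -0.02, 0.01 and -0.002 for all distal windows. With loess offsets the member start-site median was -0.0097 on day 7 and -0.0025 on day 3, where 114 of 225 windows lay below 0 in place of 153, and with total counts the member distal median was 0.028 on day 3 and 0.0155 over both days. At an unadjusted p of 0.05 there were 25 of 225 member start-site windows on day 7 (16 higher, 9 lower), 25 on day 3 (0 higher, 25 lower) and 26 over both days (4 higher, 22 lower), and 29 of 627, 33 of 616 and 45 of 631 distal windows. These are 11.1%, 11.1% and 11.6% of the member start-site windows, beside 5.59%, 8.39% and 6.60% of all start-site windows. For distal windows they are 4.63%, 5.36% and 7.13%, beside 6.02%, 6.62% and 6.63% of all. Of all start-site windows at that p, 1915 were higher and 1077 lower on day 7. On day 3 1099 were higher and 3381 lower, and over both days 1159 and 2386. Windows of a gene overlap or adjoin, so the member windows are not independent of each other. The share of counts in start-site windows was on day 3 below the whole R26WT range in 3 of the 4 R26TIR1(F74G) mice, and its part in the day 3 values was not tested.

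**Figure D4:**
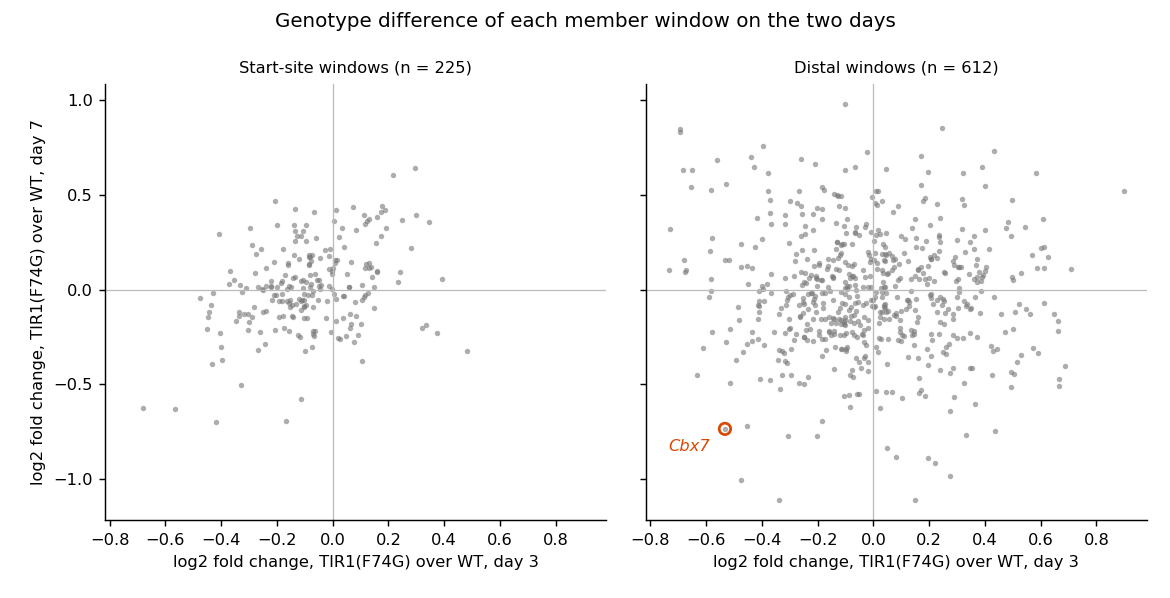
Log2 fold change of R26TIR1(F74G) over R26WT mice on day 3 (x axis) against day 7 (y axis) for each member window tested on both days, start-site windows left and distal windows right. The ringed point is the Cbx7 window, at -0.53 and -0.74. Most start-site windows lie left of 0 on day 3, around a median of -0.09, and around 0.01 on day 7.

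By function, no group had a start-site window past the threshold, and the medians differed in sign. Over both days 29015 of all 53681 start-site windows were below 0, with a median of -0.01 and 6.60% at an unadjusted p of 0.05. Of the 29 PRC1 start-site windows 22 were below 0 over both days (median -0.13, 7 of 29 at an unadjusted p of 0.05, all lower), and of the 12 windows of the H3K27 demethylases 11 were above 0 (median 0.08, 0 at that p). Under TMM and 4 other scalings the PRC1 median stayed between -0.13 and -0.10 and that of the H3K27 demethylases between 0.08 and 0.13. Deacetylase start-site windows had a median of -0.08 (26 of 37 below 0), H3K9 and H3K79 methyltransferases -0.10 (16 of 22), SWI/SNF -0.05 (14 of 24), PRC2 -0.04 (12 of 18), H3K4 methyltransferases -0.02 (12 of 18), acetyltransferases -0.02 (29 of 54) and NuRD -0.01 (6 of 11), of which the last 4 turned above 0 with loess offsets (0.03, 0.02, 0.03 and 0.007) and the last 3 also with total counts. PRC2 start-site windows had a median of 0.07 on day 7 and of -0.10 on day 3, the latter -0.003 with loess offsets. Those of the H3K9 and H3K79 methyltransferases had -0.20 on day 7 (18 of 22 below 0, 9 of the 22 at Ehmt2) and 0.02 on day 3, with the same signs under the other scalings. Summed per gene, these 5 genes had a median of -0.15 on day 7 (5 below 0) and -0.12 on day 3 (4 below 0). The sign on day 3 thus depends on counting windows or genes. Among distal windows the medians ran from -0.13 for NuRD (12 of 14 below 0) to 0.05 for the H3K27 demethylases (25 of 60 below 0). Of all 150811 distal windows 76112 were below 0. The NuRD windows all belong to Chd4. Summed per gene, the H3K27 demethylases differed in sign, with 0.10 for Kdm6a and -0.18 for Kdm6b over both days. Kdm6b was placed by the gene end, so the split of its windows into start-site and distal ones depends on that placing.

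Counts were also summed per gene, separately for start-site and distal windows, so that a broad shift over many windows could be tested. No member passed the threshold in any of these comparisons with edgeR. For start-site sums, 0 of 43 passed on day 7 (0% of 12016 genes), on day 3 (0% of 12013) and over both days (0.00832% of 12019, 1 gene). At an unadjusted p of 0.05 there were 2 members (4.65%, beside 4.9% of all genes), 12 (27.9%, beside 16.2%) and 9 (20.9%, beside 9.95%), all with lower values in R26TIR1(F74G) mice. Over all genes, 280 start-site sums were lower and 309 higher at that p on day 7. The counts were 1675 lower and 275 higher on day 3, and 1017 and 179 over both days. For distal sums, 0 of 37 passed on day 7 (0% of 13206), on day 3 (0% of 13206) and over both days (0% of 13227), with 4 (10.8%, beside 7.45%), 4 (10.8%, beside 12.2%) and 5 (13.5%, beside 11.3%) at an unadjusted p of 0.05. DESeq2 called 0 members in 5 of these 6 comparisons and 1, the distal sum of Hdac7, over both days. At an unadjusted p of 0.05 DESeq2 had 4, 8 and 10 members for start-site sums and 4, 3 and 6 for distal sums, in the same order of comparisons.

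The distal sum of Hdac7, over 24 windows within 7306 bp of its start sites, was the leading gene-level value. It was 130, 126, 130 and 148 CPM in R26WT and 112, 123, 106 and 105 CPM in R26TIR1(F74G) mice on day 3, and 133, 127 and 134 CPM against 120, 116 and 121 CPM on day 7. All 7 R26TIR1(F74G) values lay below all 7 R26WT values, the case for 1 of 37 members beside 0.333% of the 13227 distal sums. The log2 fold change was -0.21 (SE 0.05, adjusted p = 0.155) with edgeR and -0.21 (SE 0.05, adjusted p = 0.0156) with DESeq2, and it was -0.14 (SE 0.06) on day 7 and -0.26 (SE 0.08) on day 3. Of the 24 windows 20 had a value below 0, and so had 13 of the 14 start-site windows. The start-site sum of Hdac7 was 53.2, 50.1, 47.8 and 56.8 CPM against 38.8, 46.5, 42.9 and 45.8 CPM on day 3, and 52.7, 43.8 and 54.9 CPM against 45.2, 42.1 and 44.3 CPM on day 7 (log2 fold change over both days -0.23, SE 0.07, adjusted p = 0.373). The groups were apart on day 3 and overlapped on day 7.

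Other distal sums at an unadjusted p of 0.05 over both days were those of Hdac5, another class IIa deacetylase (-0.27, SE 0.08, adjusted p = 0.248), Cbx7 (-0.20, SE 0.07, adjusted p = 0.263), Kdm6b (-0.18, SE 0.07, adjusted p = 0.323) and Cbx2 (-0.43, SE 0.20, adjusted p = 0.407). All 10 distal windows of Hdac5 and all 14 of Kdm6b had values below 0. Without day 3 R26TIR1(F74G) replicate 3 the Kdm6b sum was at -0.12. The Cbx2 sum rested on 5 windows of at most 1.26 CPM and was at -0.21 without the 2 least deep libraries. At the start sites of Kdm6b the value was on the other side of 0, at 0.14 (SE 0.09, adjusted p = 0.644). Its start was placed by the gene end, so this contrast depends on that placing.

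The start-site sums at an unadjusted p of 0.05 over both days were, besides Hdac7, those of Cbx8 (-0.27, SE 0.09, adjusted p = 0.373), Dot1l, the only H3K79 methyltransferase (-0.26, SE 0.09, adjusted p = 0.387), Hdac1 (-0.20, SE 0.08), Arid1a (-0.19, SE 0.08), Ring1 (-0.19, SE 0.08), Ezh1 (-0.24, SE 0.10), Smarca4, an ATPase of SWI/SNF (-0.18, SE 0.08), and Cbx2 (-0.17, SE 0.08). Their adjusted p lay between 0.373 and 0.486. For Cbx8, a PRC1 chromodomain gene, the single start-site window had 35.7, 32.5, 35.8 and 41.6 CPM in R26WT and 29.1, 31.0, 21.8 and 32.9 CPM in R26TIR1(F74G) mice on day 3, and 39.2, 36.6 and 30.9 CPM against 31.2, 29.7 and 35.0 CPM on day 7. The genotypes overlapped on both days. On day 3 alone 12 start-site sums were at an unadjusted p of 0.05: 6 of the 9 above (Hdac7, Cbx8, Dot1l, Arid1a, Ring1 and Ezh1) together with Suz12 (-0.29, SE 0.10, adjusted p = 0.171), Mbd3 (-0.23, SE 0.09, adjusted p = 0.228), Kat7 (-0.24, SE 0.11, adjusted p = 0.246), Cbx7 (-0.23, SE 0.10), Kmt2d (-0.27, SE 0.13) and Kat5 (-0.23, SE 0.11). On day 7 alone there were 2, Dot1l and Ehmt2, an H3K9 methyltransferase (-0.28, SE 0.11, adjusted p = 0.962). Without day 3 R26TIR1(F74G) replicate 3, the library with the lowest start-site share on that day, the day 3 values of Mbd3, Kat7 and Kat5 were -0.13, -0.12 and -0.12, and those of Cbx8, Arid1a, Ezh1 and Dot1l were -0.22, -0.14, -0.18 and -0.12. The Arid1a value over both days was -0.11 without it. Without day 3 R26WT replicate 4, Kat7 was at -0.16 and Dot1l at -0.13 on day 3. On day 7 Ehmt2 was at -0.18 without R26WT replicate 3 and Dot1l at -0.18 without R26TIR1(F74G) replicate 1.

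**Figure D5:**
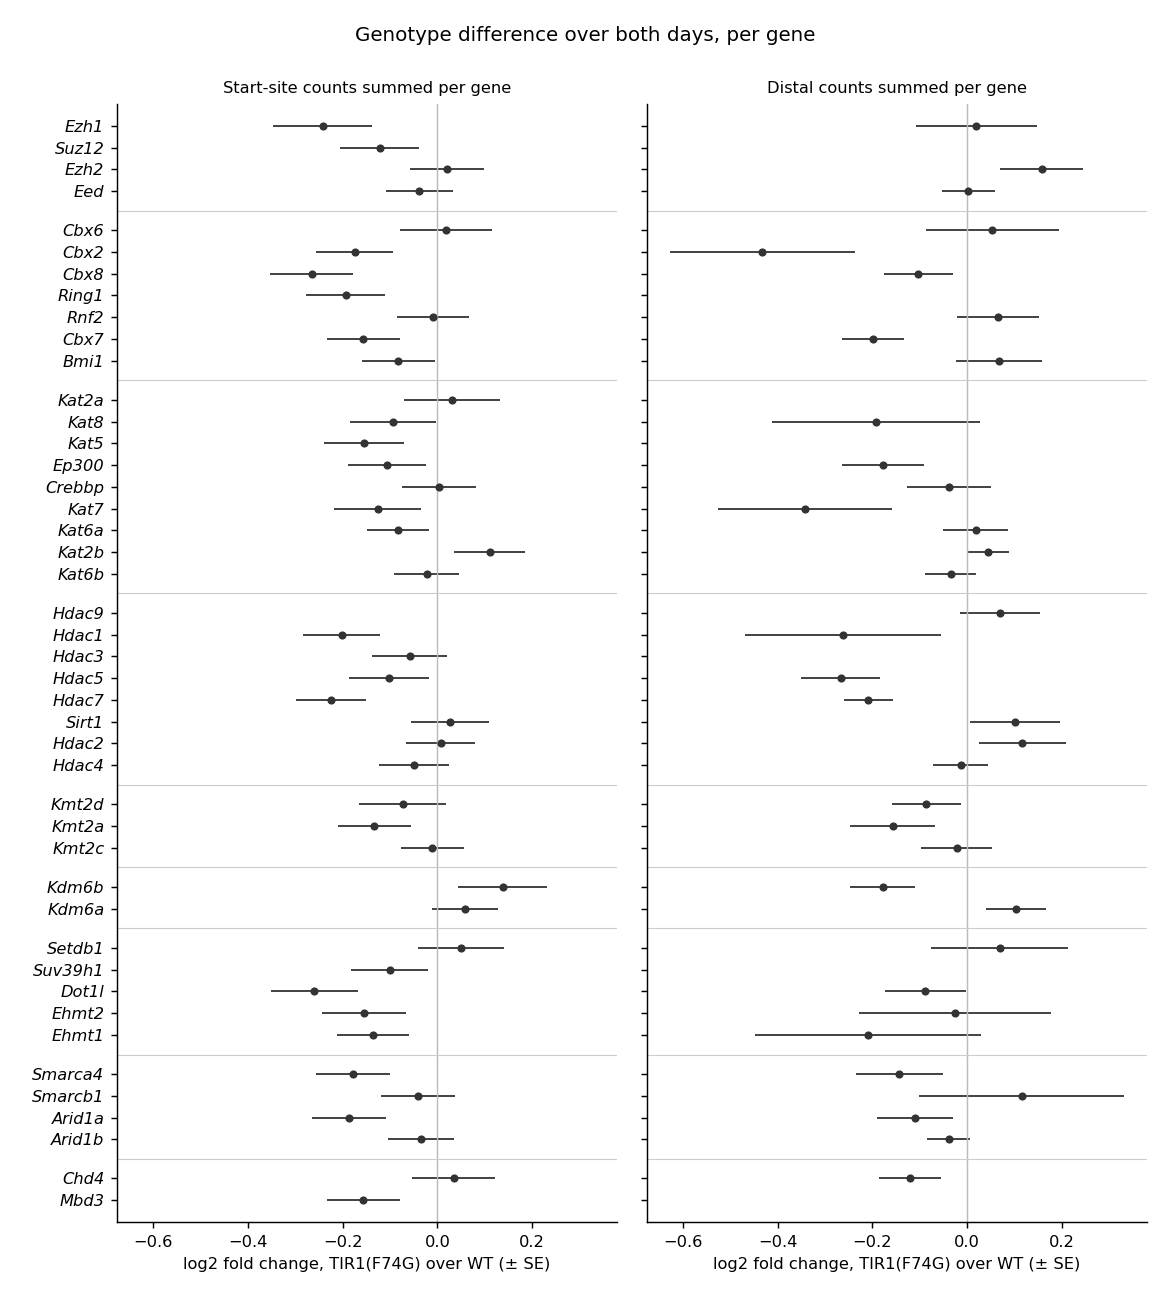
Log2 fold change of R26TIR1(F74G) over R26WT mice over both days, with its SE, for start-site counts (left) and distal counts (right) summed per gene, in the order of the functional groups. Of 43 start-site sums 32 lie below 0 and of 37 distal sums 23, and none passes an adjusted p of 0.05. Over all genes, which are not drawn, 7938 of 12019 start-site sums and 7334 of 13227 distal sums lie below 0.

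Ezh2 had the smallest unadjusted p of the 37 distal sums on day 7, 0.00537. Its distal sum over 16 windows was 25.4, 20.4 and 24.7 CPM in R26WT mice and 30.6, 30.3 and 29.5 CPM in R26TIR1(F74G) mice on day 7, so the groups did not overlap. That held for 8 of 37 distal sums of members on day 7 (3 higher, 5 lower), beside 14.1% of all, and for 2 on day 3, both lower, beside 6.19%. The log2 fold change of the Ezh2 sum was 0.37 (SE 0.11, adjusted p = 0.597) on day 7 and -0.01 (SE 0.12, adjusted p = 0.990) on day 3, where 27.2, 24.4, 24.5 and 26.9 CPM stood against 31.7, 23.98, 22.96 and 25.4 CPM. Its start-site sum had 0.23 (SE 0.12, adjusted p = 0.975) on day 7. Over both days the distal sum was at 0.16 (SE 0.09, adjusted p = 0.520).

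Between day 7 and day 3, with genotype as a term, 0 of 856 member windows passed the threshold (0.00332% of all windows, 8 windows), with 46 at an unadjusted p of 0.05 (5.37%, beside 5.47% of all), and DESeq2 called 0 with 39. The start-site sums (0 of 43, 0% of all genes, and 1 member beside 3.51% of genes at an unadjusted p of 0.05) and distal sums (0 of 37, 0% of all genes, and 3 members beside 5.38%) gave none with edgeR either, and DESeq2 called 0 of each with 0 and 3 at an unadjusted p of 0.05. Groups did not overlap for 1 member window (0.117%, beside 0.0939% of all): a distal window of the NuRD ATPase gene Chd4 at 3300 bp, with 6.01 to 6.62 CPM in the 6 mice of day 7 and 6.92 to 9.62 CPM in the 8 mice of day 3 (log2 fold change -0.32, SE 0.11, adjusted p = 0.810). The start-site sum of Ezh1 had 0.21 (SE 0.11, adjusted p = 1.00) and the distal sum of Hdac5 0.22 (SE 0.08, adjusted p = 0.845), both higher on day 7. Day cannot be told apart from anything else that differed between the mice of day 3 and those of day 7. For the interaction of day and genotype 0 of 856 windows passed (0% of all), with 48 at an unadjusted p of 0.05 (5.61%, beside 6.32% of all), and DESeq2 called 0 with 37. The 18 PRC2 start-site windows had a median difference of 0.33 between the day 7 and day 3 fold changes, with 17 above 0 and 6 at an unadjusted p of 0.05, beside 0.11 for all member start-site windows and 0.09 for all start-site windows. Of all 53681 start-site windows 33822 were above 0 in this comparison and 6.96% at an unadjusted p of 0.05. Under the other scalings the PRC2 median stayed between 0.22 and 0.33. The 18 windows belong to 4 genes. On day 7 the most accessible windows had 47.2, 45.1 and 31.6 CPM (Eed), 42.3, 42.2 and 33.9 CPM (Ezh2) and 26.9, 27.1 and 19.2 CPM (Suz12) in R26WT mice. Replicate 3, a library of 6348754 counts, was lowest in each, but not for Ezh1 (12.9, 16.7 and 15.6 CPM). Its part in the PRC2 median was not tested. The 24 windows of SWI/SNF had a median of 0.13 with 23 above 0, but 0.004 with 12 above 0 under loess offsets.

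A wider list of chromatin genes was counted in the same way. Of 127 other genes in the list, 114 had start-site sums over both days: 0 passed the threshold, and 21 (18.4%) were at an unadjusted p of 0.05, all lower in R26TIR1(F74G) mice, with a median log2 fold change of -0.07 beside -0.08 for the members and -0.04 for all genes. Of their 2080 windows 1 distal window passed over both days. Of 102 distal sums 14 (13.7%) were at an unadjusted p of 0.05, 4 higher and 10 lower. Over all genes 9.95% of start-site sums were at that p (179 higher, 1017 lower) and 11.3% of distal sums (477 higher, 1024 lower).

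The assignment by nearest start site leaves out windows inside a member gene that lie closer to another start. Kat6b contains 21 such windows, nearest to the start of Dupd1, and 1 of them, chr14:21636636-21636837, passed over both days, with 2.48 ± 0.471 CPM in R26TIR1(F74G) mice and 1.23 ± 0.256 CPM in R26WT mice (log2 fold change 1.00, SE 0.20, adjusted p = 0.0429). Over all 240778 windows the share past the threshold was 0.0112% (27 windows), and neighbouring windows of the 21 overlap. Kat6b was the only member whose gene body was searched in this way, and no rule set beforehand chose it. The window past the threshold lies 77840 bp from the Dupd1 start, and which gene it serves was not tested.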

How the data were processed

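Bulk ATAC-seq of Treg cells gave 14 libraries, 1 per mouse. The authors aligned reads to mm10 with Bowtie2, called peaks with MACS2 and counted reads over windows around peak summits with featureCounts, and the deposited values are raw counts per window, with no normalization. The 240778 windows are 201 bp wide, have mean counts of at least 10.07, and their names, whose first base is not stated to count from 0 or 1, are printed as given.

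Each window was assigned to the protein-coding gene with the nearest curated RefSeq start site. The 5 members without one (Cbx2, Hdac1, Hdac3, Kat6a and Kdm6b) were placed by the upstream end of the gene. Windows averaging 10 or more counts over the compared libraries were tested in R 4.3.3 with edgeR 4.0.16, using TMM factors and the quasi-likelihood test, with Benjamini-Hochberg adjustment over all windows tested and a threshold of 0.05. Each day was fitted on its own mice. The comparison over both days was fitted with day as a term, and day with genotype as a term. Raw counts were also summed per gene and the sums fitted in the same way. CPM values are counts scaled to library totals with TMM factors. Totals of 5653289 to 20184487 counts set the precision, and reads carry no molecular identifiers.

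The members and lists were chosen with earlier results of these data known. Named windows were, by rule, those past the threshold, the 3 largest non-overlapping differences per direction (mean count 50 or more), and the most accessible ones. Named genes were the 5 highest and 5 lowest by start-site level, the 5 with most distal windows and the 3 most variable. Genes named for a summed count, the least variable genes and the promoters printed were chosen after their values were seen. Alternatives were DESeq2 1.42.0, other normalizations, filters, thresholds (an adjusted p under 0.1) and distances, a replicate block, the mouse name prefix and leaving out each mouse. Leaving out the 2 least deep libraries, a different start site, a pseudocount of 0.1 in place of 0.5 CPM, means of the mice with prefix AC and other scalings of the functional groups were added after seeing the data. Scripts were tested on simulated data. A gene of the marker lists is not reported here.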

Additional observations from a re-analysis of the deposited data

Results flagged for a closer look

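Of the groups of 4 mice tested, 5 of 108 groups of 4 mice had a highest or lowest mouse far from the other 3 by Dixon's criterion, and chance alone marks about 1 in 20 groups. On day 3 the start-site sum of Hdac1 was 28.05 CPM in replicate 1 of the R26TIR1(F74G) mice, the least deep library, against 23.17 to 23.85 CPM in the other 3. The Ehmt2 sum was 43.44 CPM in replicate 4 of the same group against 29.67 to 31.17 CPM. In replicate 3 of that group the Arid1a sum was 72.22 CPM against 105.9 to 111.7 CPM, and the Chd4 sum 21.69 CPM against 27.99 to 29.13 CPM. That library had the lowest share of counts in start-site windows on day 3, 47.35%. In R26WT mice on day 3 the Arid1a window 407 bp upstream was at 41.78 CPM in replicate 4, which had the highest share, 51.87%, against 31.55 to 33.21 CPM in the others. The part of the start-site share in these values was not tested.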

How the results depend on the processing

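The single member window past the threshold over both days, the Cbx7 window, was 0 windows under DESeq2 (no adjusted p for it), total counts (adjusted p = 0.0512), the replicate block (0.0688) and the mouse name prefix as a term (0.191), and between 0 and 1 with each mouse left out. Its log2 fold change stayed between -0.66 and -0.56 in all of these. Its call held with RLE factors (0.0433), loess offsets (0.0350), no filter (0.0429), a mean count of at least 50 (0.0152) and, added after seeing the data, without the 2 least deep libraries (0.0395). Replicate numbers did not pair the mice: same-numbered mice had correlations of deviations between -0.0685 and 0.0666, and the block gave 0 calls in the other comparisons too. The distal sums called over both days were 1, Hdac7, under DESeq2 in place of 0 with edgeR. The median start-site difference on day 3 was -0.0025 with loess offsets in place of -0.09, and that of the interaction 0.0171 in place of 0.11. With total counts the distal median on day 3 was 0.028 in place of -0.03 and that of the interaction -0.0782 in place of -0.03. The causes were not tested. No value changed sign among calls. By the most accessible window, 1 of the lowest 5 genes was shared with the order by sums.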
